A study of Mus musculus with 18 samples.

Results

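The hypoxia and glycolysis genes studied here in mouse thyroid side population cells are a set of 34 genes: 16 glycolytic enzymes, 4 genes of glucose and lactate transport and the pyruvate switch, 6 genes of oxygen sensing and 8 targets of the hypoxia response. Members were the array probes whose gene name equals one of the 34 names, and the brightest probe stood for each gene. All 34 were found among the 27962 gene names of the array, and all 34 passed the filter on dim probes, which left 20455 genes for testing.

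The samples were C57BL/6 thyroid cells of male and female mice. Thyroids were dissociated with collagenase and dispase, the cells were cultured over 2 days before staining with Hoechst, a dye that binds DNA, with or without verapamil, and sorted. Side population cells are those that export the dye, and main population cells are the remainder. The 4 groups were the control side population (CSP, 6 arrays) and control main population (CMP, 3 arrays) from mice without surgery, and the thyroidectomized side population (TSP, 6 arrays) and thyroidectomized main population (TMP, 3 arrays) from mice after partial thyroidectomy, the removal of part of the gland. All groups share the strain, the 2 days of culture and the sort, so no value here is that of uncultured tissue. The labels do not give the age of the mice, the time after surgery or whether animals were pooled, and p-values measure the spread between the arrays of a group. Each array was hybridised with amplified, Cy5-labelled sample RNA and a Cy3-labelled reference made of RNA from several Swiss Webster mouse tissues, with no dye swap. Values below are log2 ratios of sample over reference, so they compare groups for 1 gene and do not rank genes against each other.

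Cells use glycolysis to turn glucose into pyruvate, and lactate dehydrogenase and monocarboxylate transporters then turn pyruvate into lactate and export it. When oxygen falls, prolyl hydroxylases of the Egln family stop marking the alpha subunits of the hypoxia-inducible factors for destruction, and the stable alpha subunit (Hif1a or Epas1) pairs with Arnt and binds a short DNA core, ACGTG or GCGTG, near its target genes. Hif1a is controlled mainly at the protein level, which these arrays do not measure, and Epas1 is best known from endothelial cells.

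The bases before the start sites of the members that differed together are shown first, because the hypoxia-inducible factors bind a short core near their targets. The RefSeq promoter table (build GRCm38.p6) held 32 of the 34 members, without Slc2a3 and Epas1. In the 250 bases before a start site, ACGTG on either strand occurred in 20 of these 32 genes (62.5%), against 18.5% of all 27025 genes of the table. GCGTG on either strand occurred in 21 of the 32 (65.6%), against 30.9% of all genes. At least 1 of the cores occurred in 29 of the 32 (90.6%), against 41.5% of all genes; the 3 without either were Gpi1, Tpi1 and Eno2. Genes with several start sites were counted once, with all their windows. Many members are textbook targets of these factors, so the shares also describe how members were chosen, and a match is not a bound site.

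The windows of 6 members that were higher in the side population, and of Ldhb, which was lower, are printed 5′ to 3′ on the strand of the gene, with capitals marking ACGTG and also GCGTG on either strand.
Pgk1, chrX:106186850-106187099, plus strand: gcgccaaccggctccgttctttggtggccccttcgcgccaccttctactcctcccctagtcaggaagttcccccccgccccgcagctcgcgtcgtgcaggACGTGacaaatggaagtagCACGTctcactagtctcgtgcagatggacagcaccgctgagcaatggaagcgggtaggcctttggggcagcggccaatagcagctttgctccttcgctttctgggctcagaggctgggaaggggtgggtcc
Slc2a1, chr4:119108495-119108744, plus strand: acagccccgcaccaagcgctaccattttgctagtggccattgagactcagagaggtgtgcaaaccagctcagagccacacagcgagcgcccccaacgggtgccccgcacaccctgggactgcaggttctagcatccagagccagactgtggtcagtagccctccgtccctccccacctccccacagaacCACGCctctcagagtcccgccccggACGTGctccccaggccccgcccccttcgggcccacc
Slc16a3, chr11:120948817-120949066, plus strand: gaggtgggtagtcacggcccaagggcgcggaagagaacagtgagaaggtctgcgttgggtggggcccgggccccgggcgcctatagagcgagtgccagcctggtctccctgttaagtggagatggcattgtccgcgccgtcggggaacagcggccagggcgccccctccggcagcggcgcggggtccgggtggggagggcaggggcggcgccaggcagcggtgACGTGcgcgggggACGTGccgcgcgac
Egln3, chr12:54203875-54204124, minus strand: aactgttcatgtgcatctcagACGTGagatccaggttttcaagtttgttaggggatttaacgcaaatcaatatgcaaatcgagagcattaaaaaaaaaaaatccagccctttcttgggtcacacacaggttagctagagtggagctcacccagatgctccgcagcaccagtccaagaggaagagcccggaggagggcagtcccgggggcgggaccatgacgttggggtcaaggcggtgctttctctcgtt
Ankrd37, chr8:45999851-46000100, minus strand: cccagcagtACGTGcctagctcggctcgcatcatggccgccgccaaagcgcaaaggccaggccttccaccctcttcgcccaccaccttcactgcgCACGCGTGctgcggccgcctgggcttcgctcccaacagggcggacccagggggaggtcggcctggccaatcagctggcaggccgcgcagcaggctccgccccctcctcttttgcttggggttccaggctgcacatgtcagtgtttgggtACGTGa
P4ha1, chr10:59323046-59323295, plus strand: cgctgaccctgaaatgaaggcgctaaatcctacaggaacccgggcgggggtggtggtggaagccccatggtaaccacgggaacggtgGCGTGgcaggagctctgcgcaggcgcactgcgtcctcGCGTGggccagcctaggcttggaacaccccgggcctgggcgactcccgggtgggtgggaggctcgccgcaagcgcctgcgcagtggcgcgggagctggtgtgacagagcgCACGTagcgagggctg
Ldhb, chr6:142507958-142508207, minus strand: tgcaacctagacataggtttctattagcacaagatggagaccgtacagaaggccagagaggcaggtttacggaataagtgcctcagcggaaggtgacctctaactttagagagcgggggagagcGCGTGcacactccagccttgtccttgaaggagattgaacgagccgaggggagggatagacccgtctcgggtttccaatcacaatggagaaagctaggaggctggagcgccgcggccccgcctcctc

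The Pgk1 window held ACGTG in both orientations, first bases 150 and 131 before the start. The Slc16a3 window held 2 copies of ACGTG, 27 and 14 bases before the start. Slc2a1 had 1 ACGTG at 36 bases and 1 reversed GCGTG at 61 bases. Ankrd37 held 4 cores, of which a reversed GCGTG at 155 bases and a GCGTG at 152 bases overlapped. The Egln3 window held 1 ACGTG at 229 bases, and P4ha1 held 3 cores, at 163, 126 and 16 bases. The Ldhb window held no ACGTG and 1 GCGTG, at 126 bases. Members that did not pass the test held cores as well. ACGTG occurred 5 times in 1 of the 2 Ldha windows, 3 times in Hif1a, and 2 times each in Hk2 and Bnip3. Gpi1, Tpi1 and Eno2, also not called, held neither core. Whether cores go with the direction of a difference was not tested.

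The share of spots with a Cy5 signal well above background was 38.8% to 72% per array. TSP 1 and TSP 2 stood apart from their labelled group: their median correlation over all genes was 0.949 with the main population arrays and 0.693 with the other side population arrays, which had a median of 0.874 among themselves. Both arrays were kept in the labelled group, and the differences between TSP and the other groups below are given with and without them. Among cell type markers, 10 of 10 endothelial genes and 8 of 10 fibroblast genes passed the test as higher in CSP than in CMP, and 10 of 10 epithelial and 8 of 13 thyroid follicular genes as lower. The mean log2 ratio of the endothelial list ran from 1.06 to 3.03 in CSP and from -1.77 to -1.27 in CMP, and that of the fibroblast list from -1.62 to 1.12 and from -3.72 to -3.12. The epithelial list ran from -1.23 to 2.35 in CSP and from 3.47 to 3.93 in CMP, and Krt8, an epithelial keratin, differed by -4.69 (SE 1.16, adjusted p = 0.0133 by limma). Tg, which encodes thyroglobulin, had a mean log2 ratio of 4.10 in CSP and 5.29 in CMP, with overlap between the arrays. The leukocyte gene Ptprc was well above background on 1 of 6 CSP and 3 of 3 CMP arrays. Of 9 leukocyte genes measured, only 1 had a positive difference of CSP minus CMP, and the median difference was -0.59. In the test 1 was called higher and 1 lower in CSP. The gene with the positive difference was Cd14, which was higher on every CSP array than on any CMP array. The endothelial, fibroblast, epithelial and follicular lists move with every difference between populations below, and their part in it was not tested. In sorted bulk RNA, a change in the share of cells of a type and a change of RNA per cell cannot be told apart.

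Without surgery, the side population had more RNA of the oxygen sensor Egln3, the alpha subunit Epas1, the hypoxia targets Ankrd37 and P4ha1, the glycolytic kinase Pgk1 and the glucose transporter Slc2a1, and less of Ldhb. These 7 of 34 members passed the test (6 higher and 1 lower; adjusted p under 0.05 by limma, Benjamini-Hochberg over 20455 genes), on a background of 14.8% of all genes called. By direction, 7.62% of all genes were called higher and 7.19% lower. The median difference of the 34 members was 0.35 on the log2 scale, and that of all genes 0.06. By role, 1 enzyme rose and 1 fell of 16, 1 of 4 transport genes rose, 2 of 6 oxygen-sensing genes rose, and 2 of 8 hypoxia targets rose. The arrays of CSP and CMP did not overlap for 11 members (9 higher, 2 lower), where 20.2% of all genes showed no overlap (11.1% higher and 9.12% lower).

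**Figure D1:**
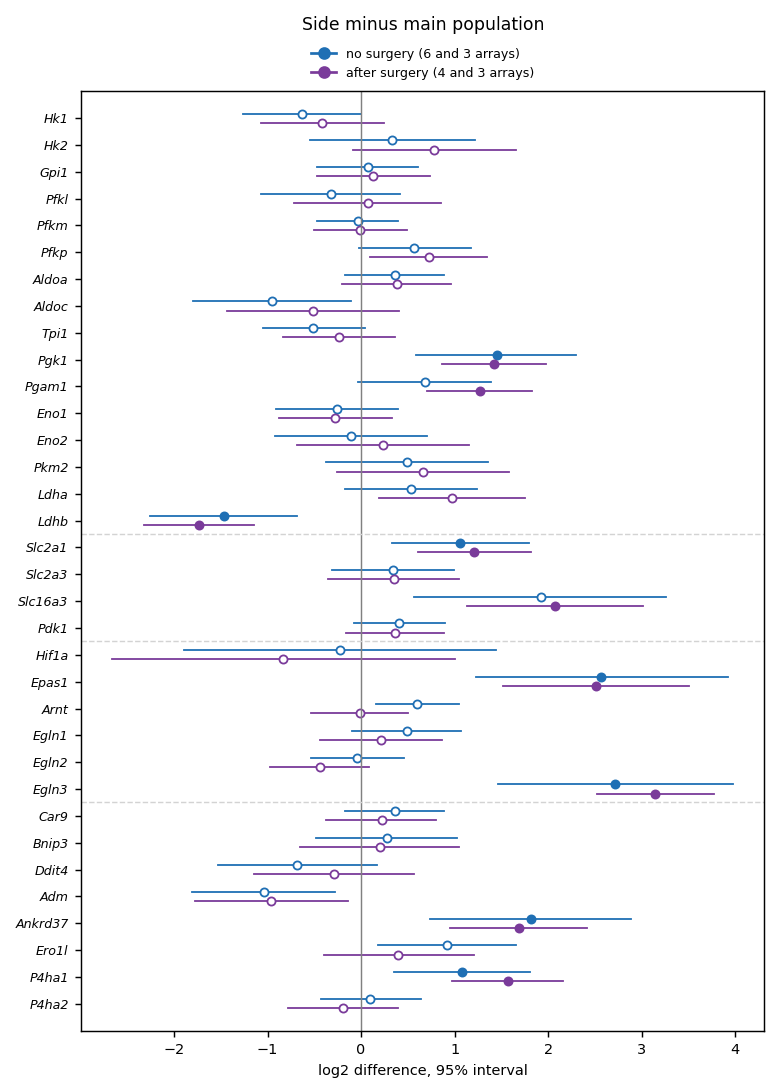
Log2 difference of side minus main population for the 34 members, with 95% intervals, without surgery (blue, all arrays in the fit) and after surgery (purple, without TSP 1 and TSP 2). Filled points passed an adjusted p of 0.05, dashed lines part the 4 roles, and Egln3 and Epas1 lie farthest to the right while Ldhb lies farthest to the left in both.

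Among the oxygen-sensing genes, Egln3, a prolyl hydroxylase that is itself a target of the hypoxia-inducible factors, differed most. Its log2 ratio in CSP had a lowest value of 1.14, a median of 1.62 and a highest of 2.11, and in CMP the values were -1.30, -1.37 and -0.65. Every CSP array lay above every CMP array, by a mean of 2.72 (SE 0.60, 6.57-fold, adjusted p = 0.00941 by limma). Egln1, the main sensor in most tissues, differed by 0.49 (95% interval -0.10 to 1.07) and did not pass the test. Egln2 differed by -0.04 (95% interval -0.54 to 0.46) and did not pass either. The Egln3 probe lies at chr12:52198570-52198629 of mouse build mm7, the build of the array design.

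Epas1, the alpha subunit known from endothelium, had a lowest CSP value of 0.72, a median of 1.77 and a highest of 2.62. In CMP the values were -0.93, -0.84 and -0.68, below all CSP arrays. The difference was 2.57 (SE 0.64, 5.94-fold, adjusted p = 0.0136 by limma). The Epas1 probe used, designed to a cDNA clone at chr17:85101159-85101218 (mm7), was well above background on 6 of 6 CSP but 2 of 3 CMP arrays. The other Epas1 probe, designed to the RefSeq transcript, was well above background on 0 of 18 arrays and differed by -0.11, so the call rests on 1 probe.

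Hif1a, the more widely expressed alpha subunit, spread over arrays within each group. In CSP it ran from -0.19 to 2.19 with a median of 1.00, and in CMP it was 2.04, 2.61 and -0.76. The CSP range lay within that of CMP, and the difference was -0.22 (SE 0.79, 95% interval -1.89 to 1.44). Arrays differed by slide: the 4 arrays of slide 5, from 3 groups, lay between -0.76 and 0.10, and the 2 main population arrays of slide 2 at 2.04 and 2.54. They also differed within slide 4, where CSP 5 and CSP 6 were 0.50 and -0.19, against 2.61 in CMP 2 and 2.80 in TMP 2. CSP minus CMP was -2.45 within slide 4, whereas TSP minus TMP was 0.36 within slide 5. The part of the slide in this spread was not tested. Arnt, the common partner subunit, did not overlap (CMP -0.57, -0.46 and -0.53; CSP from -0.32 to 0.53, median 0.06), but its difference of 0.60 (SE 0.21) had an adjusted p of 0.0642 by limma, and its 3 other probes differed by -1.03, -0.29 and 0.76.

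**Figure D2:**
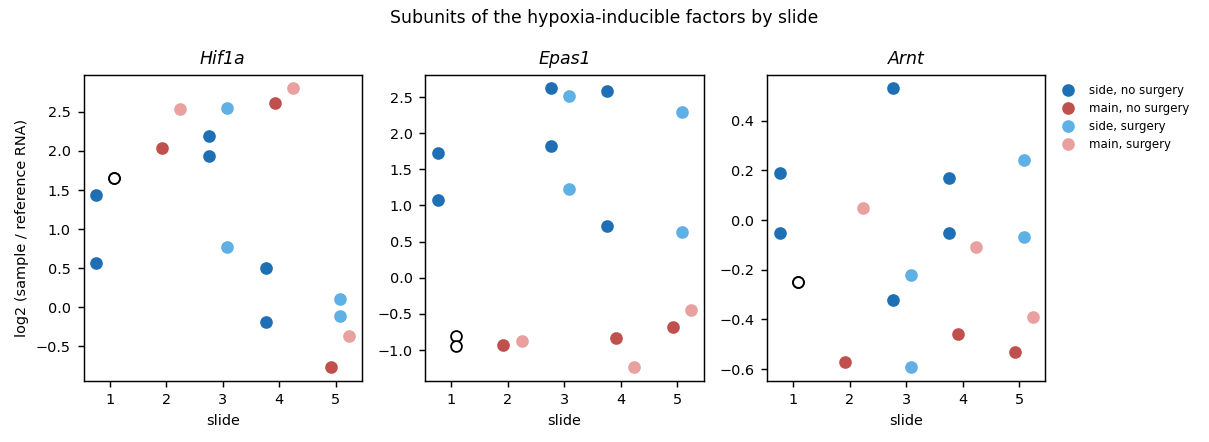
Log2 ratio of Hif1a, Epas1 and Arnt on each of 18 arrays, by slide, coloured by group, with open circles for TSP 1 and TSP 2. Epas1 parts side (blue) from main population (red) arrays on every slide that holds both. Hif1a on slide 5 is at most 0.10 in all groups present, and on slide 4 its side population arrays lie below the main population arrays.

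Of the transporters, Slc2a1 (GLUT1), the widespread basal glucose carrier, rose. Its lowest CSP value was 1.13, the median 1.59 and the highest 1.93, and CMP had 0.20, 0.48 and 0.84. No arrays overlapped, and the difference was 1.06 (SE 0.35, 2.08-fold, adjusted p = 0.046 by limma). Slc16a3 (MCT4), a lactate exporter of glycolytic cells, had CSP values from 2.44 to 3.39 with a median of 2.73, and CMP values of -0.11, 1.04 and 1.94. All CSP arrays were above all CMP arrays by a mean of 1.92 (SE 0.64, 3.77-fold), with an adjusted p of 0.052 by limma, and CMP arrays were widely spread. In the fit without TSP 1 and TSP 2, which has a smaller pooled spread, the same difference had an adjusted p of 0.00288 by limma. That fit called 8 members between CSP and CMP (7 higher and 1 lower), the 7 above and Slc16a3, on a background of 19.2% of all genes (10.2% higher and 9% lower). Slc2a3 (GLUT3), known from neurons, differed by 0.34 (95% interval -0.31 to 0.99). Pdk1, a kinase that keeps pyruvate out of mitochondria, differed by 0.41 (95% interval -0.08 to 0.90).

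Of the 16 glycolytic enzymes, Pgk1, an ATP-forming kinase of the lower pathway, rose. Its CSP values had a lowest of 1.33, a median of 1.60 and a highest of 1.87, and CMP had 0.14 and 0.15, the spot of CMP 2 having been left out by its quality flags. The difference of 1.45 (SE 0.41, 2.73-fold, adjusted p = 0.0246 by limma) therefore rests on 2 CMP arrays, and the second Pgk1 probe differed by 1.11. Ldhb, the lactate dehydrogenase subunit known from oxidative tissue, fell: CSP values ran from -4.39 to -3.48 with a median of -3.98, and CMP had -2.25, -2.59 and -2.63. All CSP arrays were below all CMP arrays, by a mean of -1.47 (SE 0.38, 2.78-fold, adjusted p = 0.0148 by limma). Ldha, the subunit of glycolytic tissue, had CSP values from 0.35 to 2.07 with a median of 0.78 and CMP values of 1.00, 0.47 and 0.04, which overlapped, and differed by 0.53 (95% interval -0.17 to 1.24).

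The other 13 enzymes did not pass the test. Their differences ran from -0.95 for Aldoc, a brain-type aldolase, to 0.68 for Pgam1, the phosphoglycerate mutase that acts after Pgk1. Aldoc was lower on every CSP array (-5.07 to -3.87, median -4.23) than in CMP (-3.26, -3.83 and -3.03), with an adjusted p of 0.121 by limma. Hexokinases start the pathway, and Hk1 differed by -0.63 and Hk2, the inducible form, by 0.33 in the other direction (adjusted p 0.17 and 0.657 by limma). The phosphofructokinase subunits, the main control step, differed by -0.32 for Pfkl, -0.03 for Pfkm and 0.57 for Pfkp. Gpi1, Aldoa, Tpi1, Eno1, Eno2 and Pkm2 differed by 0.07, 0.36, -0.51, -0.26, -0.11 and 0.49 in that order. The median difference of the 16 enzymes was 0.02.

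Among the hypoxia targets, Ankrd37, a small ankyrin repeat protein gene, rose. Its CSP values had a lowest of 2.90, a median of 3.23 and a highest of 3.94, all above the CMP values of 1.14, 1.55 and 1.82. The difference was 1.82 (SE 0.51, 3.53-fold, adjusted p = 0.024 by limma). P4ha1, a catalytic subunit of collagen prolyl hydroxylase, also rose: CSP ran from 1.10 to 2.00 with a median of 1.39, and CMP had 0.77, -0.12 and 0.52. The groups did not overlap, and the difference was 1.08 (SE 0.35, 2.11-fold, adjusted p = 0.0435 by limma), with 0.89 on its second probe. P4ha2, its paralogue, differed by 0.10 (95% interval -0.43 to 0.64).

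Adm, which encodes the vasodilator peptide adrenomedullin, lay on the other side. Its CSP values ran from 0.51 to 2.31 with a median of 0.81, and CMP had 2.63, 2.03 and 1.67, so that only CSP 1 reached the CMP range; the difference of -1.04 (SE 0.37, 2.06-fold) had an adjusted p of 0.062 by limma. Ero1l, an oxidase of the endoplasmic reticulum, was higher on each of 5 CSP arrays with a value (2.81 to 4.12) than in CMP (2.65, 2.62 and 2.19), with a difference of 0.92 and an adjusted p of 0.0871, and its second probe differed by -0.03. Car9 (a carbonic anhydrase), Bnip3 (a mitophagy receptor) and Ddit4 (an mTOR inhibitor) differed by 0.36, 0.28 and -0.68 and did not pass the test. Members just inside the threshold were Slc2a1 and P4ha1, and members just outside were Slc16a3, Adm and Arnt.

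**Figure D3:**
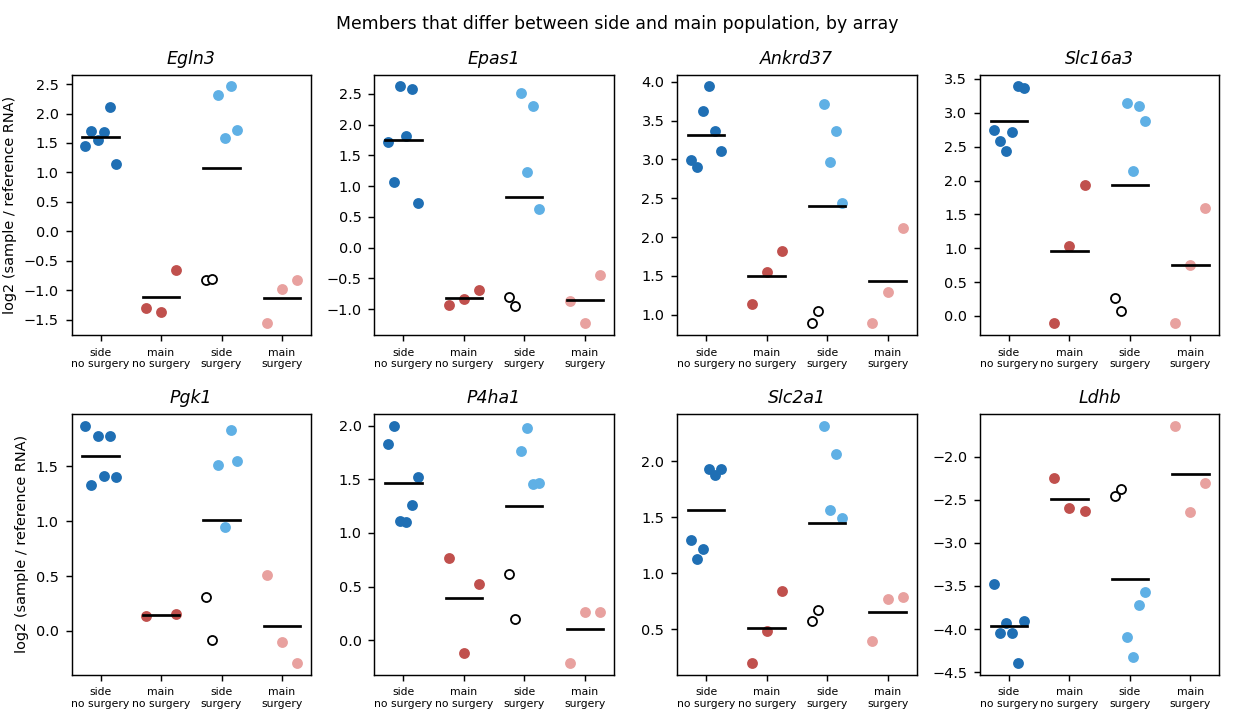
Log2 ratio of sample over reference RNA on each array for 8 members, by group, with bars at group means and open circles for TSP 1 and TSP 2. In 7 panels both side population groups lie above the main population except for the open circles, and for Ldhb they are lower than it.

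After partial thyroidectomy, the fit on all 18 arrays called 0 of 20455 genes between TSP and TMP, and so 0 members (0% of all genes called by limma; 2798 genes and 9 members had an unadjusted p under 0.05). TSP 1 and TSP 2 lay within the range of the 6 main population arrays, and outside that of TSP 3 to TSP 6, for each of the 9 members called without them. These 2 arrays were set aside for their expression profile, which is also what is tested. P-values between TSP and TMP without them are therefore optimistic. P-values between CSP and CMP in that fit also rest on a pooled spread made smaller by this choice. Leaving out arrays with a main population profile also makes TSP more like CSP by selection, which bears on the comparison of TSP with CSP. Without these 2 arrays, 9 of 34 members passed the test (8 higher and 1 lower), on a background of 14.7% of all genes (7.69% higher and 7% lower). They were the 7 members called without surgery, with Slc16a3 and Pgam1. Arrays of TSP 3 to TSP 6 and TMP did not overlap for 16 members, where 23.8% of all genes showed no overlap; with all 6 TSP arrays this was 3 members and 3.94% of all genes. The median difference of the members was 0.22, and 0.20 with all 6 arrays.

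Egln3 in TSP 3 to TSP 6 was 2.32, 1.59, 2.46 and 1.72, against -0.82 and -0.81 in TSP 1 and TSP 2 and -1.56, -0.98 and -0.83 in TMP. The 4 arrays lay above TMP by a mean of 3.14 (SE 0.30, 8.84-fold, adjusted p = 1.62e-06 by limma without TSP 1 and TSP 2); with all 6 TSP arrays the difference was 2.20 (adjusted p = 0.251). Epas1 in TSP 3 to TSP 6 was 2.51, 1.23, 2.30 and 0.63, against -0.80 and -0.94 in TSP 1 and TSP 2 and -0.87, -1.23 and -0.44 in TMP, where its probe was well above background on 1 of 3 arrays. Its difference was 2.51 (SE 0.47, 5.72-fold, adjusted p = 0.00123) without TSP 1 and TSP 2 and 1.67 (adjusted p = 0.273) with them. Both genes thus parted TSP 3 to TSP 6 from all main population arrays, and TSP 1 and TSP 2 lay with the latter.

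Slc16a3 in TSP 3 to TSP 6 was 3.15, 2.14, 3.10 and 2.88, against 0.26 and 0.08 in TSP 1 and TSP 2 and -0.10, 0.75 and 1.59 in TMP. Slc16a3 rose by 2.07 (SE 0.45, 4.2-fold, adjusted p = 0.00363 by limma) without the 2 arrays; with all 6 TSP arrays the difference was 1.19 (adjusted p = 0.446). Slc2a1 was 2.32, 1.57, 2.07 and 1.49 against 0.39, 0.77 and 0.79, and rose by 1.21 (adjusted p = 0.00721) without the 2 arrays, against a difference of 0.80 (adjusted p = 0.32) with all 6. Neither transporter overlapped between these 4 arrays and TMP. Pgam1, which did not pass the test without surgery, was 0.36, 0.79, 1.00 and 1.13 in TSP 3 to TSP 6 and -0.16, -0.79 and -0.41 in TMP, a rise of 1.27 (SE 0.27, 2.42-fold, adjusted p = 0.00295), against a difference of 0.85 (adjusted p = 0.283) with all 6 TSP arrays. Its difference without surgery was 0.68, and the interaction, tested over all genes, did not pass for it in either fit.

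Pgk1 rose by 1.42 (adjusted p = 0.00125), Ankrd37 by 1.69 (adjusted p = 0.00273) and P4ha1 by 1.57 (adjusted p = 0.000932), all by limma without TSP 1 and TSP 2. With all 6 TSP arrays their differences were 0.97 (adjusted p = 0.264), 0.97 (adjusted p = 0.432) and 1.15 (adjusted p = 0.251) in that order, and none passed the test. Ldhb in TSP 3 to TSP 6 was -4.09, -4.32, -3.72 and -3.57, and in TMP -1.64, -2.64 and -2.31, a difference of -1.73 (SE 0.28, 3.31-fold, adjusted p = 0.000338), against -1.23 (adjusted p = 0.251) with all 6. Ldha lay above TMP on all 4 arrays (0.75, 0.60, 1.27 and 1.07 against 0.01, 0.10 and -0.25), with a difference of 0.97 and an adjusted p of 0.0939 (0.83 and 0.29 with all 6 TSP arrays, which also lay above TMP). Adm lay below TMP on all 4 arrays, with a difference of -0.96 and an adjusted p of 0.12 (-0.76 and 0.37 with all 6). Hif1a differed by -0.83 (95% interval -2.66 to 1.00) and Arnt by -0.01 (-0.53 to 0.50), and with all 6 TSP arrays by -0.55 and -0.04.

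**Figure D4:**
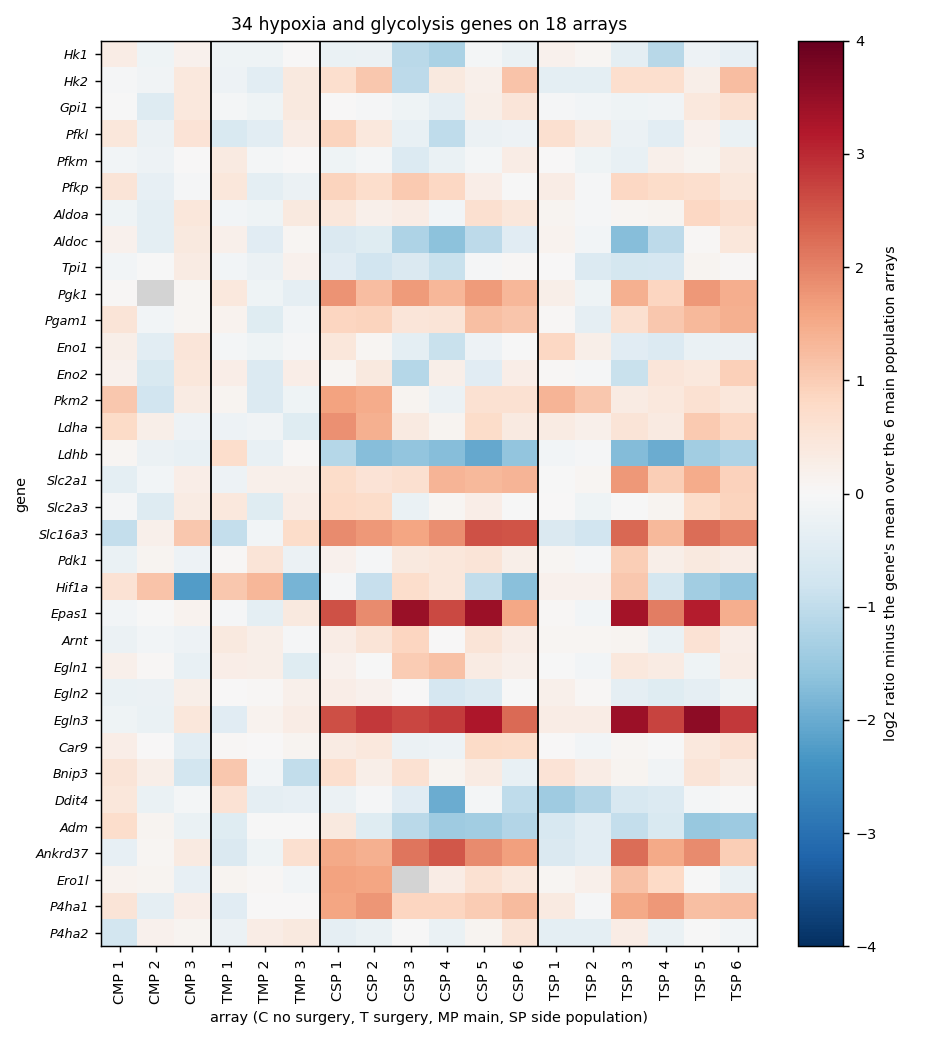
Log2 ratio of the 34 members on 18 arrays, minus each gene's mean over the 6 main population arrays, with grey for spots left out and black lines between groups. Egln3, Epas1, Slc16a3, Ankrd37 and Pgk1 are red and Ldhb is blue on all side population arrays except TSP 1 and TSP 2, and Hif1a varies within each group.

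The slides bear on these differences because the groups were spread unevenly over 5 of them. CSP 5, CSP 6, CMP 2 and TMP 2 lay on slide 4. There 8 of the 8 called members with a value kept their direction between CSP and CMP. Egln3 differed by 3.00, Epas1 by 2.49, Slc16a3 by 2.33 and Ldhb by -1.56. CMP 3, TSP 5, TSP 6 and TMP 3 lay on slide 5. There all 9 members kept their direction between TSP and TMP, with 2.92 for Egln3, 1.91 for Epas1, 1.41 for Slc16a3 and -1.34 for Ldhb. For these members CSP did not overlap CMP, except for Pgam1, and TSP 3 to TSP 6 did not overlap TMP. Apart from Pgam1 on slide 4, the directions were therefore fixed beforehand, and the part of the slide was not tested by them. Slide 1 held CSP 1, CSP 2, TSP 1 and TSP 2 only, and there TSP was below CSP by -2.40 for Egln3 and above it by 1.34 for Ldhb. With the slide as a block, 14 members were called between CSP and CMP, where 28% of all genes were called in place of 14.8%, with Aldoa, Pfkp, Pgam1, Slc2a3, Slc16a3, Arnt, Car9 and Adm added and P4ha1 (adjusted p = 0.0561) lost. Leaving out CMP 1 left 1 member called (Egln3; 5.53% of all genes) and leaving out CMP 2 left 0 (2.75% of all genes), each with TSP 1 and TSP 2 in the fit. Without TSP 1 and TSP 2, leaving out any other array left 7 to 9 members called between CSP and CMP (2676 to 4072 of all genes) and 9 to 11 between TSP and TMP (2044 to 3137 of all genes).

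Paralogues were also compared directly, in pairs chosen with earlier results of these data known. Several pairs hold members called above, so their differences in part restate those calls. No background over other gene pairs was computed. In each array the log2 ratio of 1 paralogue was taken from that of the other, for 11 pairs, and CSP was set against CMP with a two-sided exact permutation test, whose smallest possible p is 0.0238 here. The difference of Ldha minus Ldhb was 4.39 to 5.69 in CSP and 2.67 to 3.25 in CMP, higher by 2.01 (exact p = 0.0238, adjusted over 11 pairs 0.0655). Egln3 minus Egln1 was higher by 2.23 and Egln3 minus Egln2 by 2.76, both without overlap and with the same p. Aldoa minus Aldoc was higher by 1.31, also without overlap (exact p = 0.0238). Epas1 minus Hif1a was higher by 2.80 with overlap (exact p = 0.0476). P4ha1 minus P4ha2 was higher by 0.98 and Slc2a1 minus Slc2a3 by 0.72, both with overlap (exact p = 0.119 and 0.167). Of the 11 pairs, 7 had an exact p under 0.05 and 0 had an adjusted p under 0.05, the lowest being 0.0655. After surgery, in TSP 3 to TSP 6 against TMP, all 7 of these pairs again had a positive difference and 5 did not overlap, with Ldha minus Ldhb higher by 2.70 and Egln3 minus Egln2 by 3.58, where the smallest p this design allows is 0.0571. With all 6 TSP arrays the 7 differences were also positive. Among them only Ldha minus Ldhb did not overlap (2.05, exact p = 0.0238, adjusted over 11 pairs 0.131). Egln3 minus Egln2 was higher by 2.48 with overlap (exact p = 0.0476). Outside the 7, P4ha1 minus P4ha2 did not overlap after surgery. This pair was higher by 1.75 in TSP 3 to TSP 6 and by 1.45 with all 6 TSP arrays (exact p = 0.0238, adjusted 0.131).

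No member was called for surgery in the models of group means, with or without TSP 1 and TSP 2. With the slide as a block on all 18 arrays, Ankrd37 was called lower in TSP than in CSP (-1.14, adjusted p = 0.0347 by limma), where 4.62% of all genes were called; without TSP 1 and TSP 2 the blocked difference was -0.59 (adjusted p = 0.362). Between TSP 3 to TSP 6 and CSP, the differences of the 34 members ran from -0.48 (Ero1l) to 0.41 (Egln3), 0 members had an unadjusted p under 0.05, and 0 of 20455 genes were called by limma (0%; 713 had an unadjusted p under 0.05). For 0 members did these 4 arrays and CSP not overlap (0.81% of all genes). With all 6 TSP arrays the range was -0.94 to 0.54, and again 0 genes were called by limma (1879 with an unadjusted p under 0.05, 1 of them a member), and 0 members did not overlap (0.46% of all genes). Between TMP and CMP the differences ran from -0.55 (Ldha) to 0.38 (Arnt), with 0 members under an unadjusted p of 0.05 and 0 genes called (26 of 20455 under an unadjusted p of 0.05). Arnt was the 1 member whose TMP and CMP arrays did not overlap (2.94% of all genes). The arrays of TMP and CMP with the same number lay on the same slide, and Egln3 differed within the 3 pairs by -0.25, 0.39 and -0.18. Ldha was lower in TMP in all 3 pairs, by -0.99, -0.37 and -0.29, and Hif1a higher in all 3, by 0.50, 0.19 and 0.39; neither passed the test. Of the 33 members with all 3 pairs, 11 had one sign in every pair (7 lower and 4 higher in TMP). The share over all genes was not counted, so this tally has no background and is not a result about the members. Hk1, Tpi1 and Pfkm are in it although 1 pair of each differed by 0.00 after rounding. Without TSP 1 and TSP 2, the median distance from a 95% interval's centre to its end was 0.54 between the side population groups. Between the main population groups it was 0.68. Differences up to about these sizes could not be resolved. The intervals vary by gene and are not adjusted over all genes, so larger differences could also have been missed. These intervals do not use the same-numbered pairs of TMP and CMP. The interaction of surgery and population called 0 genes and 0 members (limma; 125 genes without TSP 1 and TSP 2 had an unadjusted p under 0.05), and its members ran from -0.62 to 0.59. With all 18 arrays 223 genes and 1 member, Arnt, had an unadjusted p under 0.05, and members ran from -0.90 to 0.63.

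**Figure D5:**
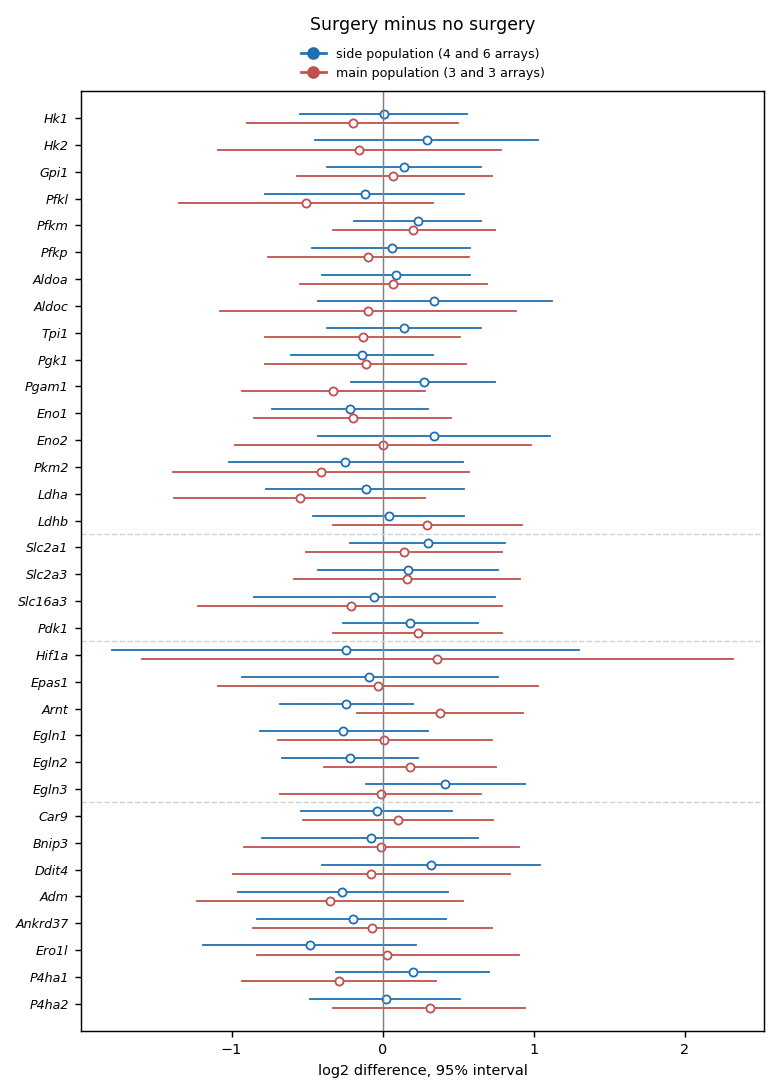
Log2 difference of surgery minus no surgery for the 34 members, with 95% intervals, in the side population (blue, TSP 3 to TSP 6 against CSP) and main population (red, TMP against CMP), from the fit without TSP 1 and TSP 2. All points are open, since 0 members passed the test, and they lie between -0.55 and 0.41.

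Further genes of the pathway were counted from lists. Of 27 further glycolysis genes measured, 4 were called higher and 2 lower between CSP and CMP, and Gapdh was not analysed here. Of 12 genes of the pentose phosphate path and gluconeogenesis, 1 was higher and 1 lower, and of 27 further hypoxia genes 3 were higher and 2 lower. These are 22.2%, 16.7% and 18.5% of the lists, near the 14.8% of all genes called. The largest rises were in Lox, the collagen cross-linking oxidase (2.71, 6.56-fold, adjusted p = 0.0187), Bpgm, which makes bisphosphoglycerate (2.13, adjusted p = 0.0235), Pfkfb4, a bifunctional regulator of phosphofructokinase (1.82, adjusted p = 0.0241), and Slc2a4, the insulin-responsive glucose transporter (1.51, adjusted p = 0.0479). The largest falls were in Stc2, a secreted glycoprotein (-2.06, 4.18-fold, adjusted p = 0.00918), Pdk3, a paralogue of Pdk1 (-1.45, adjusted p = 0.00796), Pfkfb2 (-1.02, adjusted p = 0.0258) and the transketolase Tkt (-0.97, adjusted p = 0.0319).

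Pfkfb4 had CSP values from 0.41 to 1.39 and TSP 3 to TSP 6 values from 1.00 to 1.32, with -1.16 and -1.06 in TSP 1 and TSP 2 and -1.40 to -0.15 in CMP and TMP together. Without TSP 1 and TSP 2, the 4 further genes with the largest rise in TSP over TMP were Lox (2.71, adjusted p = 0.000453), Bpgm (2.25), Slc2a4 (2.07) and Pfkfb4 (1.92), and the 4 with the largest fall were Stc2 (-1.74), Taldo1, the transaldolase (-1.45), Hif1an, which hydroxylates an asparagine of the alpha subunits (-0.90), and Mxi1 (-0.88). With all 6 TSP arrays 0 of these 8 genes were called (adjusted p 0.251 to 0.328 by limma), with differences of 1.66, 1.45, 1.38 and 1.17 for Lox, Bpgm, Slc2a4 and Pfkfb4 and of -1.28, -1.01, -0.74 and -0.66 for Stc2, Taldo1, Hif1an and Mxi1.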

How the data were processed

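The deposited scanner files list every spot with raw and background intensity per channel, per the file headers. The deposited value table holds log2 ratios by the authors; their normalization is not given in the sources used here. Extraction was with Agilent Feature Extraction 8.5.1.1 per the submitters' processing notes and 9.5.1.1 per the file headers. By rank correlation with the scanner files, 10 of its columns matched their own file best and 8 (CSP 2 to CSP 5, TSP 2 to TSP 5) a different file from within their group. Arrays are therefore numbered as the scanner files are. The median of a column lay between 0.13 and 0.30, and the table's centring stays unknown.

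Mean signals were background corrected (normexp, offset 50) and normalized within arrays (loess) with limma 3.58.1 in R 4.3.3 (files read with data.table, version 1.17.8). Control spots and spots with outlier flags were left out of the values. Replicate spots were averaged. A probe had to be well above its Cy5 background on 3 or more of 18 arrays, and the brightest such probe stands for the gene. A model with 4 group means over all 18 arrays gave the tests, with Benjamini-Hochberg adjustment over 20455 genes and a threshold of 0.05. "Without TSP 1 and TSP 2" is the same model on 16 arrays, the 2 being left out for their expression profile. Exact permutation tests of paralogue pairs used SciPy, and figures matplotlib. Scripts were tested on simulated data.

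Same-numbered TMP and CMP arrays share a slide, and their deviations from the group means correlated at 0.666, 0.741 and 0.808. TMP and CMP arrays with different numbers never share a slide, so a pairing of samples and the slide cannot be told apart. Between CSP and TSP the same-numbered correlations ran from -0.0486 to 0.465. For numbers 3, 4 and 5 they were 0.327, 0.215 and 0.465, above the highest with another number (0.162, 0.111 and 0.104). For numbers 1, 2 and 6 they were below it. Whether the numbers pair CSP with TSP stays unknown, and the models of group means do not use a pairing. Precision is limited by the number of arrays. The members, lists, paralogue pairs and promoters shown were chosen with earlier results of these data known. Named further genes are, per comparison, the 4 largest rises and 4 largest falls among those called. Gene names are those of the array design (Pkm2 is now Pkm, and Ero1l is Ero1a).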

Additional observations from a re-analysis of the deposited data

How the results depend on the processing

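Shares in parentheses are of all genes called in the same setting. Between CSP and CMP, where 7 members were called (14.8%), the count was 4 with median centring in place of loess (12.9%), 0 with scaling between arrays (2.63%), 14 with the slide as a fixed block (28%) and 12 with that block and without TSP 1 and TSP 2 (21.1%). It was 0 within slide 4 (0%), which holds 2 CSP arrays and 1 CMP array. Leaving out each array in turn gave 0 to 8 (563 to 3343 of all genes). The lowest counts were without CMP 2 (0 members, 2.75%) and CMP 1 (1 member, 5.53%). With the other alternatives the count was 5 to 8. Not all of their shares are given here, so that range is not a result about the members. Among alternatives added after the data were seen, the count was 2 without TSP 1 and TSP 2 and with scaling between arrays (10.6%). Leaving out each of the other 16 arrays gave 7 to 9 (2676 to 4072 of all genes).

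Between TSP and TMP, where 0 members were called, the count was 9 without TSP 1 and TSP 2 (14.7%), 13 with the slide as a block as well (15.7%), 1 with the slide block on all arrays (1.08%), 1 within slide 5 (1.82%), and 0 to 4 with each array left out in turn (2 without TSP 1, 4 without TSP 2). Added alternatives gave 11 without slide 1 (14%), 6 without TSP 1 and TSP 2 and with scaling (12.7%), 10 with median centring (11.5%), and 9 to 11 with a further array left out. Between TSP and CSP, where 0 were called, 1 was called with the slide block (Ankrd37, lower in TSP; 4.62%) and 16 within slide 1 (40.5%), where both TSP arrays are TSP 1 and TSP 2. Between TMP and CMP, and for the interaction, 0 members were called in every setting run. Within slides TMP and CMP have 1 array each, so no test was run there.

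With the replicate number as a block, 6 members were called between CSP and CMP (9.67%) and 0 in the other comparisons. This block is shared by all 4 groups, and no model of the TMP and CMP pairs alone was fitted. Without TSP 1 and TSP 2 and with the replicate block, 13 were called between CSP and CMP (22.3%) and 11 between TSP and TMP (15.8%).

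Over 31 alternatives, the adjusted p by limma between CSP and CMP was under 0.05 in 28 for Egln3 (2.65e-06 to 0.147), 27 for Epas1 (0.000398 to 0.216), 27 for Ldhb (0.000509 to 0.67), 26 for Ankrd37 (0.000594 to 0.412), 12 for Slc2a1 and 12 for P4ha1, and in 24 of 30 for Pgk1 (0.00141 to 0.448). No called member changed its direction. Median centring moved the median of all genes between CSP and CMP from 0.06 to -0.08, and between TSP and CSP from -0.04 to 0.24. The cause of these shifts was not tested. Signal over background limits Epas1 and Car9, whose probes were not well above background on every array.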
